A study of Saccharomyces cerevisiae with 11 samples.

Results

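Translational efficiency, the number of ribosome footprints on a coding sequence relative to the RNA of the same coding sequence, was measured across genes in Young cells of budding yeast. Of the 6668 coding sequences (open reading frames, ORFs) in the count tables, 2391 had at least 20 counts in each of the 4 Young libraries, and these were kept. The libraries were 2 RNA-Seq libraries (RNA Young 1 and 2) and 2 ribosome profiling libraries (Ribo Young 1 and 2), and the RNA and the footprints of each number came from the same lysate. The comparison addressed which functions and which CDS lengths were translated well or poorly before replicative aging.

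The study sampled Young, Middle and Aged cells of the wild-type diploid strain BY4743, a MATa/MATα strain that carries his3Δ1, leu2Δ0 and ura3Δ0 in both copies and lys2Δ0 and met15Δ0 in 1 copy each. All cells were grown in synthetic defined medium at 25 °C. Young cells were the unlabeled cells that stayed in the supernatant when biotin-coated mothers were pulled out of a batch culture with magnetic beads. Middle cells were those bead-bound mothers, and Aged cells were such mothers after further growth in a miniature chemostat aging device (MAD). Young cells were therefore a population of daughters and their descendants, not a defined age of mother.

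The RNA libraries held 955721 and 2585717 counts and the footprint libraries 417314 and 518833 counts. The 2391 ORFs took 76.2% and 78.0% of the RNA counts and 93.8% and 90.0% of the footprint counts. Their median counts were 130 and 419 in RNA and 49 and 75 in footprints, so the footprints limited the precision. The floor of detection, set at 3 counts per library, was 1.16 to 7.19 counts relative to library size (CPM), and it covers counting error only. The libraries are bulk, so fewer cells of a type and less RNA per cell cannot be told apart.

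The strain's marker genes were checked before the results. LEU2 and URA3, which the genotype gives as deleted in both copies, had counts of 80 and 142 (LEU2) and 70 and 412 (URA3) in RNA, and of 50 and 30 (LEU2) and 20 and 73 (URA3) in footprints. Both therefore passed the minimum although the genotype has no copy of them, and where these counts came from was not tested. HIS3, with his3Δ1 in both copies, had 58 and 128 counts in RNA and 15 and 29 in footprints and did not pass. The 13 genes that a/α diploids repress were low, with 234 and 438 counts in RNA, 30 and 23 counts in footprints, and none over the minimum. Of 10 genes that daughters express after division, 5 passed it.

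Ribosomes initiate on most yeast messages after the small subunit scans from the cap to the first AUG, and the bases around that AUG, upstream reading frames and the closed-loop factors all affect how often this happens. A footprint is the stretch of message that a ribosome shields from RNase, so footprints per message count how densely ribosomes occupy it. In yeast, messages for ribosomal proteins and abundant enzymes are known for dense ribosome occupancy, and the density is known to fall as coding sequences get longer.

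The start sites of the 5 ORFs with the highest and the 5 with the lowest fitted values, among called ORFs with a mean of at least 50 counts in both assays, show the sequences that a scanning ribosome meets (12 bases before the start codon, the start codon in capitals, 6 bases after it, RefSeq R64). The highest were PDC5 (chrXII:410723-412414, + strand), YDR524C-B (chrIV:1489598-1489798, - strand), HTB1 (chrIV:914317-914712, - strand), POM33 (chrXII:97997-98836, - strand) and DDR48 (chrXIII:608689-609981, + strand).
PDC5: aagaagaacaaaATGtctgaa
YDR524C-B: atcaacaaaacaATGcaattc
HTB1: tacacacatacaATGtctgct
POM33: atagtcagtataATGtcatca
DDR48: aaaaaaacagcaATGggttta
The lowest were ENA5 (chrIV:527422-530697, - strand), YTA7 (chrVII:1027370-1031509, + strand), IRA2 (chrXV:171070-180309, + strand), GLT1 (chrIV:149203-155640, - strand) and MLP1 (chrXI:619805-625432, + strand).
ENA5: tgaaaattttcgATGagcgag
YTA7: tgcagaaagaacATGgcacga
IRA2: tcagggagaagcATGtcccag
GLT1: agaaaagaaagcATGccagtg
MLP1: cgttttaggataATGtcggat
Among the 12 highest ORFs, 9 had A at the third base before the start codon, and among the 12 lowest, 11 did. The 10 bases before the start held a median of 6.5 A (0 to 9) in the highest and 4.5 A (2 to 7) in the lowest.

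Translational efficiency differed widely between genes of the same cells. It is given on a log2 scale as a ratio and not a level. A value of 0 marks an ORF with equal footprints and RNA after edgeR's TMM scaling of the libraries, which sets the typical ORF near 0, and a value of 1 marks 2 times as many footprints per RNA. The values had an SD of 1.01 across the 2391 ORFs, ran from -2.67 to 5.05, and spanned 9.76-fold between the 5th and the 95th percentile. RNA density (TMM-scaled CPM per 100 codons) spanned 15.0-fold between the same percentiles and footprint density 47.7-fold. With edgeR's quasi-likelihood test and Benjamini-Hochberg adjustment over the 2391 ORFs, 605 ORFs (25.3%) were called higher and 592 (24.8%) lower than the typical ORF, 367 and 326 of them by more than 2-fold. All 1197 called ORFs had the same sign in both replicates, but the calls were made on these same replicates, so this outcome was nearly fixed in advance. Across ORFs, which are not independent replicates, the values of replicate 1 and replicate 2 correlated with Pearson's r = 0.867 (n = 2391), their median absolute difference was 0.34 on the log2 scale, and 151 ORFs (6.32%) differed by more than 2-fold. The numbers of calls depended on treating each lysate as a pair, and without the replicate block 163 and 197 ORFs were called. With library totals as the only scaling, the median of the ORFs moved from -0.03 to -0.29, and 453 were called higher and 846 lower, so 34.9% of the calls were higher against 50.5% with TMM. Without RNA Young 1, RNA Young 2, Ribo Young 1 or Ribo Young 2, in turn, the median of the ORFs was -0.06, 0.02, -0.02 and -0.09. These fits had no replicate block and 1 library left in an assay, so their calls are not compared with those of the paired fit.

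**Figure D1:**
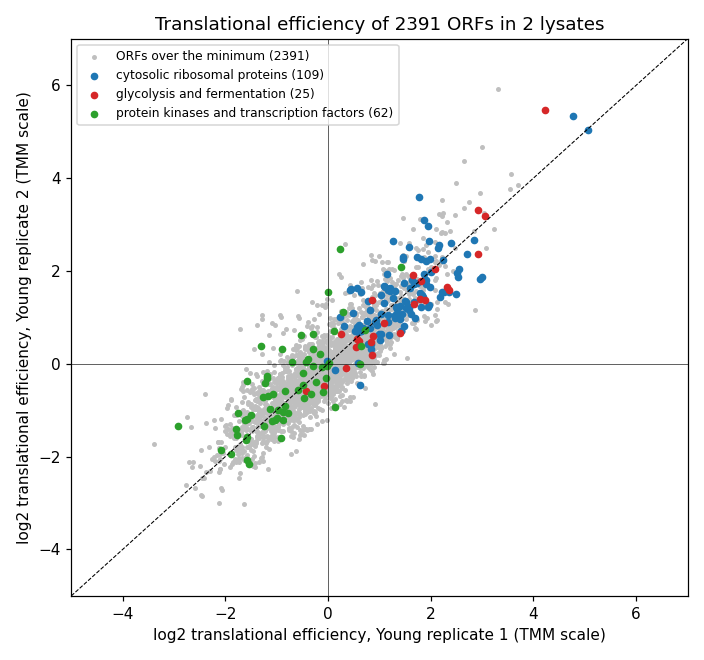
Log2 translational efficiency (TMM scale, 0 is the typical ORF) of each of the 2391 ORFs in Young replicate 1 (x axis) and replicate 2 (y axis), with ribosomal proteins in blue, glycolysis and fermentation enzymes in red, and protein kinases and transcription factors in green. The dashed line marks equal values, and the blue and red points lie mostly above 0 in both replicates while most green points lie below 0 in both.

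Short coding sequences had high and long coding sequences low translational efficiency. The median log2 translational efficiency was 1.08 for the 71 ORFs under 100 codons, 1.00 for the 271 from 100 to below 200 codons, 0.39 for the 667 from 200 to below 400 codons, -0.22 for the 928 from 400 to below 800 codons and -0.99 for the 454 of 800 codons and more. The 2 shortest classes did not differ from each other beyond the spread between replicates (0.97 and 1.17 against 1.04 and 0.97), and each of the longer classes was lower than the class before it in both replicates. In the class under 100 codons, 46 ORFs were called higher and 0 lower, and in the class of 800 codons and more, 8 were called higher and 323 lower, beside 25.3% and 24.8% over the 2391 ORFs. The difference between the medians of the shortest and the longest class was 2.08, or 1.93 in replicate 1 and 2.24 in replicate 2. Spearman's rho between log2 translational efficiency and the number of codons was -0.70 across the 2391 ORFs. RNA reads were longer than footprints, and how this bears on the RNA counts of short ORFs was not tested.

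The order of the medians was the same without ribosomal protein genes, which are short. The medians of the 5 classes were then 0.93, 0.80, 0.36, -0.22 and -0.99, a difference of 1.92. Within quartiles of RNA density per codon, rho was -0.81 in the lowest (n = 598), -0.79 and -0.64 in the middle (n = 598 and 597) and -0.47 in the highest (n = 598). At low RNA density a short ORF passes the minimum only with many footprints per RNA. The minimum alone can therefore make rho steeper in the low quartiles, and the 2 cannot be told apart there. ORFs from 100 to below 200 codons had medians of 1.84 (n = 24), 1.26, 0.90 and 0.73 from the lowest to the highest quartile. The difference between the shortest and the longest class depended on the count minimum. With a minimum on the RNA libraries only, 4979 ORFs were kept. The 158 ORFs under 100 codons then had a median of 0.64 and the 872 of 800 codons and more a median of -1.001. The difference was 1.64, against 2.08 in the main fit. The scale of this fit was shifted: the ORFs over the minimum of the main fit had a median of 0.49 in it, against -0.03 in the main fit. The levels of single classes are therefore not compared between these fits. In the libraries themselves, ORFs of 800 codons and more took 35.1% and 31.8% of the RNA counts but 17.9% and 14.8% of the footprint counts. ORFs from 200 to below 400 codons took 16.4% and 19.6% of the RNA counts and 29.7% and 31.4% of the footprint counts. Those from 400 to below 800 codons, although low in median, took 36.2% and 39.7% of RNA and 43.1% and 42.8% of footprints. Those from 100 to below 200 codons took 8.84% and 6.94% of RNA and 7.13% and 8.68% of footprints, so less in replicate 1. The class under 100 codons took 3.37% and 1.96% of the RNA counts and 2.18% and 2.30% of the footprint counts, so with its ORFs below the minimum included, its share of footprints exceeded its share of RNA in replicate 2 only. YLR154C-G, with 40 codons counted, alone gave 10419 and 5335 of these RNA counts and 5 and 1 of the footprint counts. The shares without it were not tested.

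**Figure D2:**
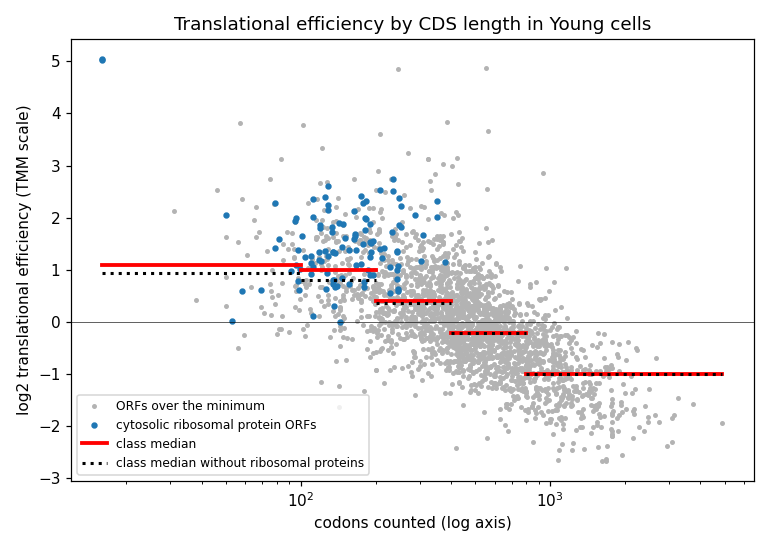
Log2 translational efficiency (TMM scale) of each ORF against its number of counted codons on a log axis, with ribosomal protein ORFs in blue. Red bars are the medians of the 5 length classes, from 1.08 for the shortest to -0.99 for the longest, and dotted black bars the medians without ribosomal protein genes.

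Paralogs share sequence, and a footprint is short enough to match both copies. A coding sequence was cut into windows of 28 bases, 1 per codon, and a window was called similar when it occurred elsewhere in the genome with at most 2 mismatches. The 276 ORFs with at least 5% similar windows had a median log2 translational efficiency of 0.98, with 177 (64.1%) called higher and 41 (14.9%) lower. The 2109 ORFs with less had a median of -0.11, with 424 (20.1%) called higher and 551 (26.1%) lower. Over the 2391 ORFs the shares called were 25.3% and 24.8%. Of the 12 highest ORFs, 9 had at least 5% similar windows, and of the 12 lowest, 2 had. ENA5, the lowest of them, had 96.9% similar windows, and its replicates differed (-3.39 and -1.74). The windows at codon 20 of PDC5 (chrXII:410780-410807, + strand) and of PDC1 (chrXII:233997-234024, - strand) show what a footprint can tell apart there, with the bases that differ in capitals.
PDC5: aacaccgtCttcggtttgccaggtgact
PDC1: aacaccgtTttcggtttgccaggtgact
PDC5, the minor pyruvate decarboxylase, had 49 and 58 RNA counts and 397 and 512 footprint counts, and PDC1, the major one, 4588 and 10759 RNA counts and 6984 and 7376 footprint counts. PDC5 was 29.2-fold over the typical ORF (log2 4.87 ± 0.32 SE, adjusted p = 3.458e-05, edgeR's quasi-likelihood test), and PDC1 was at 1.80. PMA2, the minor plasma membrane proton pump, showed the same arrangement beside PMA1, with 56 and 106 RNA counts and 176 and 152 footprint counts against 3787 and 7720 RNA counts and 2413 and 1894 footprint counts. The weak copy was the higher in both pairs, and the share of its footprints that came from the strong copy was not tested. When the ORFs with under 5% similar windows were fitted alone, 462 were called higher and 448 lower, and the difference between the shortest and the longest class was 1.79.

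Proteins of the cytosolic ribosome were well translated as a group. Of the 81 large subunit genes, 71 passed the minimum, 69 were called higher and none lower, with a median log2 translational efficiency of 1.502. Of the 57 small subunit genes, 38 passed, 30 were called higher and none lower, with a median of 1.06. The 2391 ORFs had a median of -0.03, with 25.3% called higher and 24.8% lower. All 109 ribosomal protein ORFs had fitted values above 0, from 0.01 to 5.05. The 138 genes took 1.33% and 0.77% of the RNA counts and 3.71% and 1.96% of the footprint counts. The short length of these genes moves with the value, and against the nearest ORFs in length (up to 100 shorter and 100 longer) the large subunit genes were higher by a median of 0.71 (59 of 71 above) and the small subunit genes by 0.31 (26 of 38 above). Similar windows move with it too: the 11 large subunit ORFs with under 5% of them had a median of 1.18 and the 8 small subunit ORFs a median of 1.54.

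RPL41A and RPL41B encode the shortest ribosomal protein, with 16 codons counted, and their windows were all similar to each other, so their values are uncertain as separate genes. RPL41A had 22 and 29 RNA counts and 322 and 190 footprint counts, and RPL41B 28 and 24 RNA counts and 332 and 193 footprint counts. In both, every footprint library exceeded both RNA libraries although the RNA libraries were deeper, and their log2 values of 5.05 ± 0.25 and 5.04 ± 0.26 (SE) were the highest of all. RPL3, which is present in 1 copy and had no similar window, had 964 and 1758 RNA counts and 1172 and 612 footprint counts, a log2 value of 1.15 ± 0.21 (adjusted p = 0.002285, edgeR). At the lower end stood RPS31, which encodes a ubiquitin fusion, and RPS30A. RPS31 had 481 and 556 RNA counts and 231 and 100 footprint counts, which gave 0.01 ± 0.20 (adjusted p = 0.9834). The proteins of the mitochondrial ribosome were not like the cytosolic ones in level: 40 of 72 passed, 6 were called higher and 4 lower. Their median was 0.00, on either side of 0 depending on the scaling, which also moved the median of all ORFs. The shares called were 15.0% and 10.0%, beside 25.3% and 24.8% over the 2391 ORFs. Against neighbours in length they were low, with a median difference of -0.51 and 7 of 40 above.

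The translation machinery beyond the ribosome was mixed. Elongation and release factors had a median of 0.70 (12 of 13 passed, 7 higher, 1 lower). Initiation factors had 0.08 (28 of 30, 6 higher, 5 lower) and aminoacyl-tRNA synthetases 0.25 (20 of 20, 3 higher, 1 lower). With library totals the last 2 medians were -0.18 and -0.01, and the median of the 2391 ORFs moved to -0.29. The shares called higher were 58.3%, 21.4% and 15.0% in this order, beside 25.3% over the 2391 ORFs. The shares called lower were 8.3%, 17.9% and 5.0%, beside 24.8%. Against neighbours in length the median differences were 0.81 (11 of 12 above), -0.02 (14 of 28) and 0.58 (20 of 20). The 5 elongation and release factors with under 5% similar windows had a median of -0.03, at the typical ORF. HYP2, which encodes the elongation factor eIF5A, had 428 and 1858 RNA counts and 516 and 1711 footprint counts and a log2 value of 1.85 ± 0.23 (adjusted p = 0.0003358, edgeR). Of its windows 57.05% were similar. TEF1 and TEF2, the identical genes of elongation factor 1A, had nearly equal counts in every library (6147 and 5970 in RNA Young 1) and values of 1.04 and 1.07 that cannot be told apart. Among initiation factors the subunits differed: SUI2, the alpha subunit of eIF2, had 70 and 223 RNA counts and 96 and 127 footprint counts (1.58 ± 0.22, adjusted p = 0.0006446), whereas TIF4632, a form of the scaffold eIF4G, had 358 and 869 RNA counts and 52 and 66 footprint counts (-1.48 ± 0.22, adjusted p = 0.0007211). PAB1, the poly(A)-binding protein, was at -0.70 ± 0.20 in both replicates alike (-0.70 and -0.70), with 391 and 1553 RNA counts and 105 and 190 footprint counts. Ribosome biogenesis factors, which assemble the ribosome in the nucleolus, stood opposite to the proteins they assemble: only 24 of 100 passed the minimum, against 2391 of all 6668 ORFs. Through footprints alone 68 of the 100 failed it, against 2588 of all 6668 ORFs. Of the 24, 0 were called higher and 12 (50.0%, beside 24.8% over the 2391 ORFs) lower, and their median was -0.63. REA1, the AAA protein midasin and the longest of them with 4901 codons, had 790 and 1140 RNA counts and 99 and 52 footprint counts, a log2 value of -1.95 ± 0.22 (adjusted p = 0.0002299, edgeR). Against their neighbours in length these 24 ORFs had a median difference of 0.00, and 12 of the 24 lay above them.

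**Figure D3:**
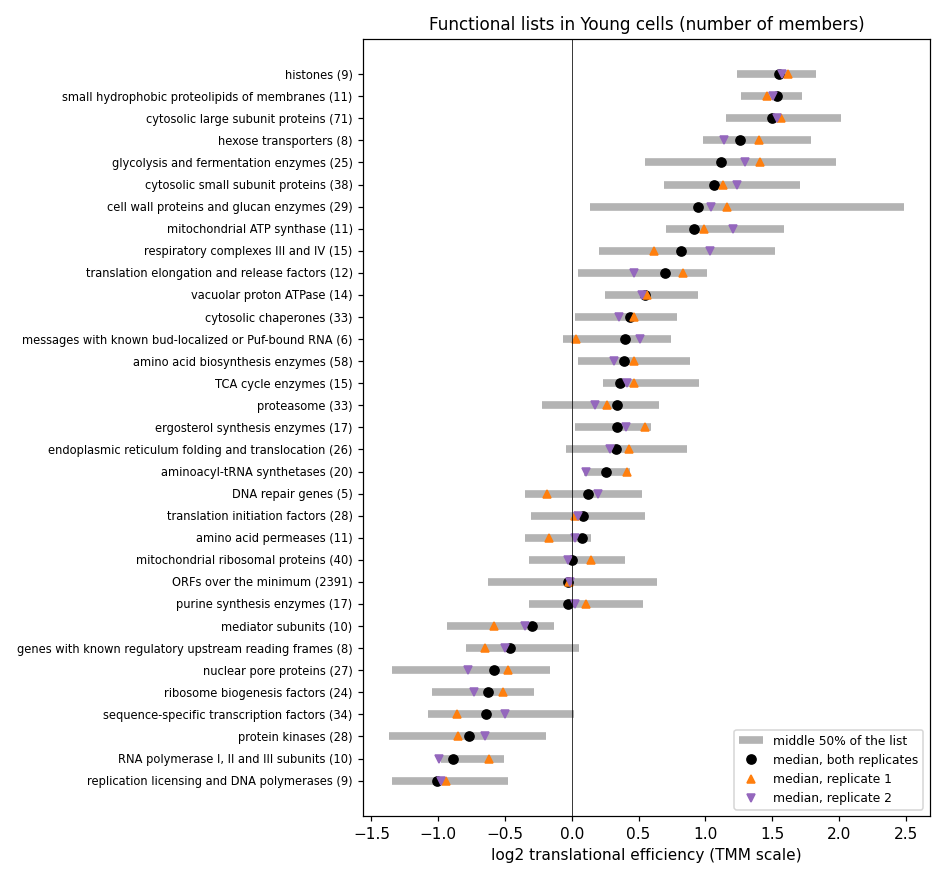
Median log2 translational efficiency (TMM scale) of each functional list with at least 5 ORFs over the minimum, with the number of ORFs in parentheses. Black points are medians over the fit of both replicates, triangles the medians of each replicate taken separately, and grey bars the middle 50% of the list. Histones, membrane proteolipids and large subunit proteins lie highest (1.55, 1.54 and 1.502), and replication genes lowest (-1.01).

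Enzymes of glycolysis and fermentation took more of the footprints than any other list. They took 5.56% and 5.54% of the RNA counts and 21.97% and 17.5% of the footprint counts. Of 26 genes 25 passed, 19 were called higher (76.0%, beside 25.3% over the 2391 ORFs) and none lower, and the median was 1.11. TDH3 and TDH2, which encode glyceraldehyde-3-phosphate dehydrogenase, had footprint densities of 10870 and 6621 (TDH3) and 9754 and 6217 (TDH2) TMM-scaled CPM per 100 codons, against RNA densities of 1434 and 661.9 (TDH3) and 1178 and 680.8 (TDH2). Both were at 3.12 (SE 0.19 and 0.18), with 84.0% and 87.3% similar windows, and every footprint density lay above every RNA density. PGK1, phosphoglycerate kinase, had no similar window, and its 2748 and 7867 RNA counts and 5991 and 4918 footprint counts gave 1.99 ± 0.21 (adjusted p = 0.0001785, edgeR). ADH1, the fermentative alcohol dehydrogenase, was at 1.49 ± 0.19 with 2043 and 1636 RNA counts and 2850 and 797 footprint counts. The lowest of the list was PYK2, the minor pyruvate kinase, which was not called (-0.51, adjusted p = 0.06023). The 14 enzymes with under 5% similar windows had a median of 0.81, and against neighbours in length 23 of the 25 ORFs lay higher.

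Hexose transporters followed glycolysis, with 8 of 12 over the minimum, 7 called higher (87.5%, beside 25.3% over the 2391 ORFs), none lower and a median of 1.26. HXT1, a low-affinity glucose transporter, had 21 and 35 RNA counts and 107 and 95 footprint counts (3.66 ± 0.27, adjusted p = 6.411e-05, edgeR), and HXT3 143 and 232 RNA counts and 300 and 323 footprint counts (2.55 ± 0.22). HXT5, which is expressed in slowly growing cells, had 99 and 677 RNA counts and 22 and 109 footprint counts and was not called (-0.54, adjusted p = 0.1008). None of the 8 had under 5% similar windows, so no value free of them could be given.

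Most mitochondrial and vacuolar energy lists had medians above the typical ORF at the minimum of 20 counts. ATP synthase subunits had a median of 0.91 (11 of 15 passed, 9 higher, 0 lower), complexes III and IV 0.82 (15 of 20, 7 higher, 2 lower), the vacuolar proton ATPase 0.55 (14 of 15, 7 higher, 1 lower) and TCA cycle enzymes 0.36 (15 of 17, 5 higher, 0 lower). The shares called higher were 81.8%, 46.7%, 50.0% and 33.3% in this order, beside 25.3% over the 2391 ORFs. With a minimum of 50 counts in each library the median was 0.01 for complexes III and IV, -0.02 for TCA cycle enzymes, 0.47 for ATP synthase and 0.32 for the vacuolar ATPase. Complexes III and IV are short (a median of 139 counted codons), and they lay 0.25 above their neighbours in length. Within complex IV the paralog COX5B, the isoform of subunit 5 that is used at low oxygen, was low, with 110 and 475 RNA counts and 23 and 37 footprint counts (-1.22 ± 0.26, adjusted p = 0.004773, edgeR), while COX13, another subunit, had 34 and 352 RNA counts and 72 and 177 footprint counts (1.70 ± 0.27, adjusted p = 0.00106). Of 22 small hydrophobic proteolipids of membranes 11 passed, 9 were called higher (81.8%, beside 25.3% over the 2391 ORFs) and none lower, with a median of 1.54. These ORFs had a median of 71 counted codons, and against neighbours in length their median difference was 0.54. PMP3, a plasma membrane proteolipid of 46 counted codons, had 85 and 206 RNA counts and 160 and 305 footprint counts (2.54 ± 0.25, adjusted p = 0.0001359).

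Cell wall genes ranged widely. Of 36 genes 29 passed, 19 were called higher and 4 lower, with a median of 0.94 and the widest middle range of any list, from 0.14 to 2.49. The shares called were 65.5% and 13.8%, beside 25.3% and 24.8% over the 2391 ORFs. CWP2, a wall mannoprotein, had 101 and 141 RNA counts and 293 and 315 footprint counts, which was 8.71-fold over the typical ORF (3.12 ± 0.25, adjusted p = 8.926e-05, edgeR). HSP150, a protein bound to wall glucan, had 787 and 870 RNA counts and 2144 and 1763 footprint counts (2.998 ± 0.23), and CCW12, another abundant mannoprotein, 696 and 1100 RNA counts and 1292 and 996 footprint counts (2.14 ± 0.18). CHS1, a chitin synthase of 1122 codons, had 612 and 2852 RNA counts but 61 and 161 footprint counts (-1.96 ± 0.21, adjusted p = 0.0001983, edgeR), and FKS1 and GSC2, the glucan synthases, were at -0.67 ± 0.24 and -1.80 ± 0.19. Wall mannoproteins are rich in repeats, and 47.2% of the windows of HSP150 and 28.8% of those of CCW12 were similar to another place in the genome. The 18 wall ORFs with under 5% similar windows had a median of 0.69.

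Histones were among the best translated messages. Of 11 genes 9 passed, 8 were called higher (88.9%, beside 25.3% over the 2391 ORFs) and none lower, with a median of 1.55. Proteolipids and large subunit proteins were close to them (1.54 and 1.502) and above them with a minimum of 10 counts in each library (1.77 and 1.73 against 1.66). HTB1, which encodes histone H2B, had 77 and 110 RNA counts and 261 and 282 footprint counts, 10.1-fold over the typical ORF (3.34 ± 0.25, adjusted p = 7.168e-05, edgeR). HTB2, its paralog, had 109 and 63 RNA counts and 125 and 76 footprint counts and was at 1.95. All 9 histone ORFs lay above their neighbours in length, and 1 of them, HHO1, had under 5% similar windows and was at 0.68 (adjusted p = 0.0547).

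Biosynthetic enzymes and protein quality control genes had medians slightly above the typical ORF at the minimum of 20 counts. Amino acid biosynthesis enzymes had a median of 0.39 (58 of 70 passed, 24 higher, 2 lower), cytosolic chaperones 0.43 (33 of 41, 14 higher, 1 lower), the proteasome 0.34 (33 of 33, 10 higher, 2 lower), folding and translocation genes of the endoplasmic reticulum 0.33 (26 of 33, 10 higher, 1 lower) and ergosterol synthesis 0.33 (17 of 24, 5 higher, 1 lower). The shares called higher were 41.4% of the amino acid enzymes, 42.4% of the chaperones, 38.5% of the endoplasmic reticulum list, 30.3% of the proteasome and 29.4% of the ergosterol enzymes, beside 25.3% over the 2391 ORFs, so the last 2 were near the background. With a minimum of 50 counts in each library the medians were 0.25, 0.11, -0.08, 0.07 and 0.01 in the same order. LYS20, a homocitrate synthase of lysine synthesis, was at the top of the amino acid enzymes with 101 and 340 RNA counts and 219 and 257 footprint counts (2.11 ± 0.21, adjusted p = 0.0001459, edgeR). Of its windows 73.3% were similar to another place in the genome. GLT1, glutamate synthase, was at the bottom with 740 and 1267 RNA counts and 104 and 31 footprint counts (-2.23 ± 0.31, adjusted p = 0.0006446). The proteasome's lowest members were its largest subunits, RPN1 with 1257 and 2788 RNA counts and 328 and 334 footprint counts (adjusted p = 0.01008) and RPN2 (adjusted p = 0.02436). Purine synthesis enzymes, with a median of -0.03, and amino acid permeases, with a median of 0.08, lay at the typical ORF. Their medians changed sign with the scaling, which also moved the median of all ORFs.

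Kinases, transcription factors and several nuclear complexes had low medians among the ORFs over the minimum. Protein kinases had a median of -0.77 (28 of 61 passed, 1 higher, 15 lower), sequence-specific transcription factors -0.64 (34 of 79, 3 higher, 17 lower), RNA polymerase subunits -0.89 (10 of 31, 2 higher, 6 lower), replication genes -1.01 (9 of 39, 1 higher, 6 lower), nuclear pore proteins -0.59 (27 of 34, 1 higher, 13 lower) and mediator subunits -0.30 (10 of 25, 0 higher, 4 lower). The shares called lower were 53.6%, 50.0%, 60.0%, 66.7%, 48.1% and 40.0% in this order, beside 24.8% over the 2391 ORFs. TOR1, a kinase that controls growth, had 282 and 1011 RNA counts and 33 and 52 footprint counts (-1.92 ± 0.22, adjusted p = 0.0002856, edgeR). ADR1, an activator of genes used without glucose, had 726 and 2055 RNA counts and 42 and 162 footprint counts (-2.02 ± 0.34, adjusted p = 0.00133), and its replicates differed (-2.91 and -1.33). INO4, an activator of phospholipid genes, was low although short, with 142 codons, 188 and 464 RNA counts and 24 and 32 footprint counts (-1.64 ± 0.25, adjusted p = 0.0009628), at -2.73 against its neighbours in length. TYE7, an activator of glycolytic genes, was the highest of the 3 transcription factors called higher, with 201 and 147 RNA counts and 234 and 124 footprint counts (1.73 ± 0.23, adjusted p = 0.000527).

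Length moves with these lists as well, and it does so unevenly. Against neighbours in length, 6 of 28 kinases lay higher, with a median difference of -0.37, and 12 of 34 transcription factors, with a median of -0.32, whereas nuclear pore proteins and RNA polymerase subunits lay at their neighbours (medians of 0.00 and 0.13). Replication genes had a median difference of -0.65 (4 of 9 above) and mediator subunits of -0.25 (2 of 10 above). MLP1 and MLP2, long coiled-coil proteins of the nuclear basket, had values of -2.10 ± 0.21 and -2.62 ± 0.23, from 607 and 1369 RNA counts and 61 and 64 footprint counts in MLP1. POM33, a pore membrane protein, was high with 41 and 60 RNA counts and 100 and 176 footprint counts (3.25 ± 0.34, adjusted p = 0.0001785, edgeR). The low medians of these lists depended on the minimum. With a minimum on the RNA libraries only, where all 4979 ORFs had a median of -0.15, the medians were 0.00 for RNA polymerase subunits, 0.12 for mediator subunits, -0.16 for nuclear pore proteins and -0.31 for replication genes, so the first 2 lay above the typical ORF and the pore proteins at it. Kinases (-0.72) and transcription factors (-0.47) stayed below it. A minimum of 50 counts in each library, where all ORFs had a median of -0.01, moved the lists the other way. Kinases were then at -0.30 and transcription factors at -0.34, nearer to the typical ORF. RNA polymerase subunits were at -1.23 and nuclear pore proteins at -0.87, further from it. Of the 39 replication genes 25 had failed the minimum through footprints alone, beside 2588 of all 6668 ORFs. IRA2, a large activator of Ras GTPase, and YTA7, a chromatin-bound AAA protein, were in no list and were among the lowest, at -2.30 ± 0.21 (811 and 2017 RNA counts, 72 and 81 footprint counts) and -2.44 ± 0.22 (553 and 1585 RNA counts, 45 and 57 footprint counts).

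**Figure D4:**
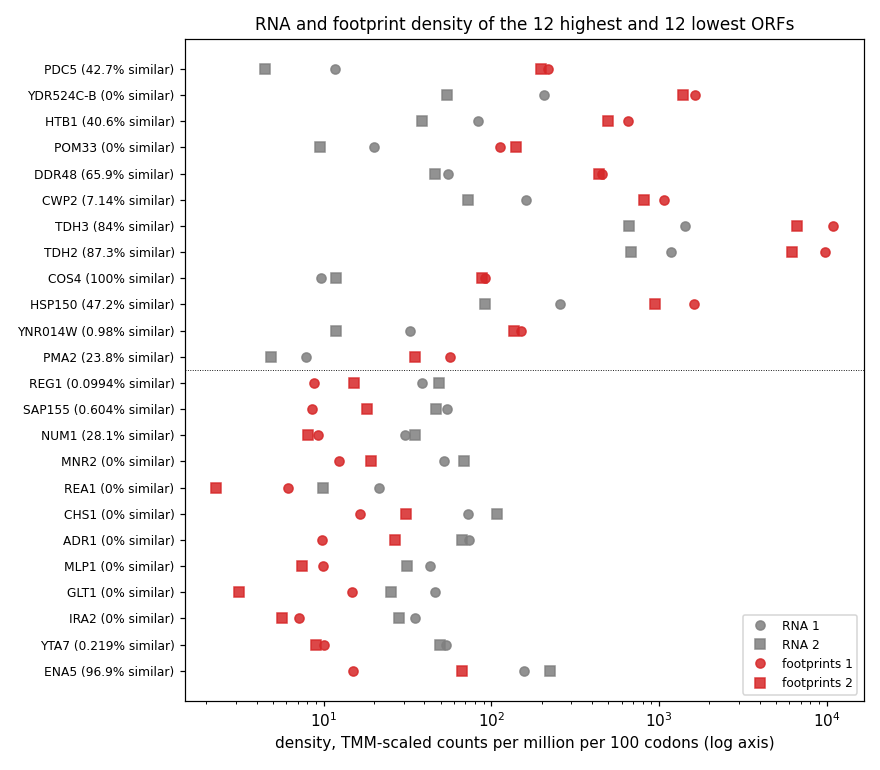
RNA density (grey) and footprint density (red) in TMM-scaled CPM per 100 codons, on a log axis, of the 12 highest and 12 lowest called ORFs, with circles for replicate 1 and squares for replicate 2 and the share of similar windows in parentheses. In the ORFs above the dotted line both footprint densities exceed both RNA densities, and below it both lie under them.

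Genes whose upstream reading frames are known to hold back translation were not high. Of 15 such genes 8 passed the minimum, none was called higher and 4 were called lower (50.0%, beside 24.8% over the 2391 ORFs), with a median of -0.46. With a minimum on the RNA libraries only, the median of the list was -0.08 beside -0.15 for all 4979 ORFs. YAP1, an oxidative stress activator, had 215 and 744 RNA counts and 39 and 90 footprint counts (-0.95 ± 0.23, adjusted p = 0.009023, edgeR), and SCH9, a kinase of the TOR pathway, 123 and 428 RNA counts and 30 and 45 footprint counts (-0.88 ± 0.25, adjusted p = 0.01717). GCN4, the activator of amino acid synthesis and the best known case, fell under the minimum with 388 and 391 RNA counts but 15 and 15 footprint counts. HAC1, the activator of the unfolded protein response whose unspliced message is held back, had 581 and 1743 RNA counts and 237 and 227 footprint counts and was not called (-0.35 ± 0.21, adjusted p = 0.1913).

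The ORFs that the minimum left out were mostly those with few footprints. It was failed through footprints alone by 2588 ORFs, 52.0% of the 4979 with enough RNA, and through RNA alone by 35. ORFs just inside it, with a lowest count of 20, numbered 71 and had a median of -0.36, and 70 ORFs lay just outside with a lowest count of 19. Few footprints beside enough RNA defined these 2588 ORFs, so a low translational efficiency is part of their definition, and their median of -0.78 in the fit with a minimum on RNA only describes them without a test. On the shifted scale of that fit, the ORFs over the minimum of the main fit had a median of 0.49. Those with the most RNA included TAR1 (35520 and 23549 RNA counts, listed at 0 and 0 footprint counts), a reading frame inside and antisense to the ribosomal RNA genes, whose reads cannot be assigned to it without strand. SWR1, a chromatin remodeler of 1505 codons, had 329 and 1050 RNA counts and 14 and 22 footprint counts, and DYN1, the dynein heavy chain, 322 and 812 RNA counts and 13 and 32 footprint counts. GCN4 in the fit with a minimum on RNA only was at -2.42.

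Sequence around the start codon went with translational efficiency in the direction of A-rich leaders, by small amounts. Of the 477 ORFs in the lowest quintile of values 58.9% had A at position -3 (counted back from the A of the start codon), and of the 477 in the highest quintile 75.3%, beside 60.9% of 5987 reference ORFs. The median was 0.06 for the 1612 ORFs with A there, -0.13 for 439 with G, -0.28 for 158 with C and -0.37 for 176 with T. ORFs with 7 to 10 A in the last 10 bases had a median of 0.26 (n = 270) and those with 0 to 2 A a median of -0.29 (n = 333). These classes also differed in length, with medians of 377 and 542 codons, and against neighbours in length their medians were 0.09 and -0.02. ORFs with T at -3 were also longer, with a median of 535.5 codons against 429 with A, and against neighbours in length the medians were 0.02 with A and -0.11 with T. An ATG in the 50 bases before the start (same strand, any frame) occurred in 11.95% of the lowest and 4.82% of the highest quintile, beside 19.2% of the reference ORFs. The 221 ORFs with such an ATG had a median of -0.22 and lay 0.32 below neighbours in length. Of them 30 (13.6%) were called higher and 73 (33.0%) lower, beside 25.3% and 24.8% over the 2391 ORFs. Such a match says only that the letters are there, and whether they lie in the transcript was not tested.

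Codon use also went with translational efficiency. The share of codons that ribosomal protein genes use most for each of 18 amino acids had a median of 38.5% in the lowest and 52.4% in the highest quintile. Because ribosomal protein genes defined the codons, the ranking was repeated without them. Among the other ORFs, the quintile with the smallest share (26.3% to 37.1%) had a median of -0.39. The quintile with the largest share (48.9% to 81.9%) had a median of 0.59. In it 231 ORFs (50.8%) were called higher and 23 (5.1%) lower, beside 25.3% and 24.8% over the 2391 ORFs. Within the 5 length classes Spearman's rho between this share and translational efficiency was 0.30 to 0.44 (54 to 928 ORFs). RNA density rises with the same share, from a median of 28.3 to 74.6 TMM-scaled CPM per 100 codons, so the share and abundance cannot be told apart here. The 130 ORFs with introns had a median of 0.99, and the 63 of them that do not encode ribosomal proteins had a median of 0.16, at -0.10 against their neighbours in length.

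**Figure D5:**
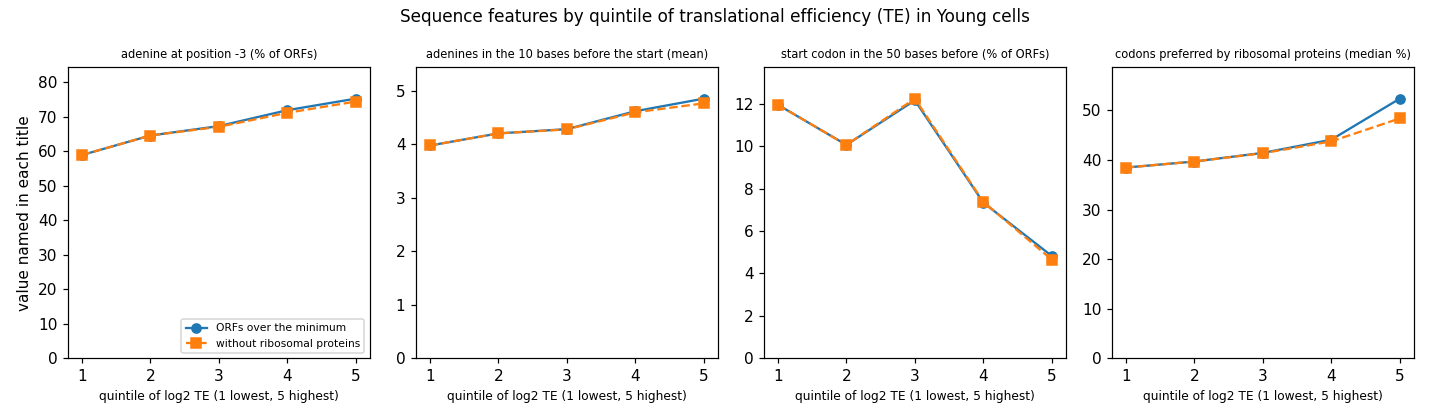
Sequence features of the ORFs in quintiles of log2 translational efficiency (TE) in Young cells, from the lowest (1) to the highest (5): adenine at position -3, mean number of adenines in the 10 bases before the start, presence of a start codon in the 50 bases before it, and the median share of codons preferred by ribosomal protein genes. Circles are the ORFs over the minimum and squares the same without ribosomal protein genes, and adenine at -3 goes from 58.9% to 75.3%.

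Lysates of older cells, which the choice of the ORFs did not use, gave a similar ranking of the same 2391 ORFs. Across ORFs, the mean of the Young replicates correlated with Pearson's r = 0.774 and 0.840 with the Middle lysates and r = 0.815 with Aged cells, all scaled over the 11 libraries (n = 2391 each). The Aged value set the only Aged footprint library against the mean of the Aged RNA libraries, so it was not paired by lysate. Of the 605 ORFs called higher in Young cells, 548 and 572 had values above 0 in the Middle lysates and 585 in Aged cells, and of the 592 called lower, 556, 576 and 559 had values below 0. The shortest and the longest class had medians of 1.06 and -1.17, and 0.77 and -0.95, in the Middle lysates and of 0.75 and -1.19 in Aged cells, beside 1.06 and -0.87, and 1.20 and -1.04, in the Young lysates. On this scale the median of large subunit proteins was 1.66 and 1.57 in the Young lysates, 1.07 and 1.11 in the Middle lysates, and 1.10 in Aged cells. PMA2, at 2.85 in the Young fit, was at 0.26 and -0.19 in the Middle lysates and at 1.31 in Aged cells.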

How the data were processed

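Counts per ORF were analyzed for 2 RNA-Seq and 2 ribosome profiling libraries of Young cells, and for the other 7 libraries in 1 comparison across ages. The deposited counts were made by the authors, who trimmed reads with Fastp, removed reads on non-coding RNA, aligned the rest to S288C (R64, sacCer3) with STAR 2.7.0a and counted reads per ORF without the first and last 5 codons and without normalization, at a fixed offset of 15 nt for RNA and at A-site offsets for footprints. Whether strand was used, and how reads with several matches were counted, is not given in the sources used here. RNA reads were longer than footprints, which can share reads between paralogs differently. The second column is the ORF length in codons, equal to the RefSeq R64 length minus 10 for 99.4% of 5988 matched ORFs, and 680 ORFs were not matched.

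ORFs with at least 20 counts in each of the 4 libraries were fitted in R 4.3.3 with edgeR 4.0.16 (TMM, glmQLFit, assay and replicate number as terms, two-sided, Benjamini-Hochberg, threshold 0.05). RNA and footprints of 1 number came from the same lysate per the methods, and the deviations of RNA Young 1 and Ribo Young 1 from their group means correlated across ORFs with r = 0.67, so the replicate block was the main design (605 higher and 592 lower). The fit had 1 residual degree of freedom and relied on 7.97 prior degrees shared across ORFs. The methods name the 2 Young samples biological replicates, but whether they came from separate cultures is not given, so p-values measure the spread between these lysates. Errors are standard errors of the fit. The members, the 33 functional lists (1128 genes, 689 over the minimum) and their tests were chosen with earlier results of these data known, so lists are described by counts and medians without a test. Neighbours in length were up to 100 ORFs on each side. Genes named are the 12 highest and 12 lowest called ORFs with a mean of at least 50 counts in both assays and the same sign in both replicates, a list of names, the 2 highest and 2 lowest of each list, and 8 ORFs left out through footprints. PDC1 was chosen after its values were seen. Similar windows were found with bwa 0.7.19. The fit was tested on simulated data. Alternatives were library totals, DESeq2 size factors, TMM without ribosomal protein genes, other minimums, no replicate block, DESeq2 1.42.0, a joint fit of 11 libraries, summed paralogs and leaving out each library, and, chosen after seeing the data, ORFs with under 5% similar windows.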

Additional observations from a re-analysis of the deposited data

How the results depend on the processing

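The 605 higher and 592 lower calls became 163 and 197 without the replicate block, 347 and 323 in a joint fit of the 11 libraries without it, and 169 to 244 and 174 to 198 when a library was left out. DESeq2 with the replicate block called 484 and 365. Minimums of 10 and 50 counts in each library gave 906 and 915, and 307 and 306, a minimum on RNA only 1129 and 1379, and no filter 1188 and 1704, since the number of ORFs tested changes with them (3458, 1109, 4979 and 6573). Library totals (453 and 846), DESeq2 size factors (670 and 540), TMM without ribosomal protein genes (707 and 585), summed paralogs (612 and 595) and ORFs with under 5% similar windows (462 and 448) stayed within 1.5 times. The difference between the shortest and the longest length class, 2.08, was 1.64 with a minimum on RNA only and 1.79 for ORFs with under 5% similar windows, and the cause of the latter was not tested. It was 1.93 to 2.24 within single replicates. Of the named ORFs, ERG13 turned from above 0 to -0.38 (adjusted p = 0.657, edgeR's quasi-likelihood test) without Ribo Young 2, and ran from -0.38 to 2.27 over the left-out libraries. Of 154 named ORFs tested, 59 lost their call without the replicate block and none reversed. Footprint depth, with a median of 49 and 75 counts, limits calls for ORFs of low RNA.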
